A study of Rattus norvegicus with 28 samples.

Results

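The change from 8 h to 16 h of exendin-4 (Ex-4) exposure in WT INS-1 cells was measured by setting the 2 bulk RNA-seq libraries of 16 h directly against the 2 libraries of 8 h. These are 4 of the 28 libraries of the series, chosen by genotype, treatment and hours alone and not by any measured value. INS-1 is a rat insulinoma line, labelled as pancreatic beta cell, and Ex-4 is a peptide agonist of the GLP-1 receptor. The study set WT cells beside Med14 S983A cells, in which alanine takes the place of a serine of Med14 (a Mediator subunit), to ask how a phosphorylation site of Med14 bears on the transcriptional response to Ex-4. WT cells received 10 nM Ex-4 for 8 h or 16 h after a change to serum-free medium. Med14 S983A knock-in cells received the same Ex-4 for the same times, and WT cells received 10 µM forskolin (FSK), which activates adenylyl cyclase, for 8 h or 16 h. Untreated WT cells (CON) and WT cells after 1 h of Ex-4 are given for reference. Each group had 2 libraries. No other allele or agent was named for any of these groups. The knock-in cells descend from cells sorted singly after genome editing, and the study worked with 2 such lines. The labels do not say whether the 2 knock-in libraries of a group came from 1 line or from both, so a difference between them and WT cells can belong to a line. No untreated library of 8 h or 16 h was analysed here, so hours of Ex-4 and hours in serum-free medium and culture cannot be told apart.

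The GLP-1 receptor couples to adenylyl cyclase, and the cAMP it makes activates protein kinase A and then the transcription factor CREB with its CRTC coactivators. Many of the first CREB targets encode proteins that shut the pathway down again, such as phosphodiesterases, the kinase SIK1 and repressor forms of CREM. Cells make cholesterol in a chain of enzymes whose genes are switched on together by SREBP2 when sterol in the endoplasmic reticulum (ER) runs low. Genes for mitosis are expressed together late in the cell cycle, and the circadian clock runs on a loop in which PER, CRY and REV-ERB proteins repress the factors that activate their own genes.

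The 4 libraries held 46350930 to 56171844 fragments, and 10157 to 10196 genes reached 1 TPM in each, a unit that scales a transcript's reads to its length and to the library. The Pearson r of log2 values between duplicates, across genes, was 0.999 at both times. The 4 libraries were labelled beta cell, and of that cell's defining markers Ins1 had 45098 to 58758 TPM and Pdx1 219 to 258 TPM, while Ucn3 had 0.387 to 0.556 TPM. Mafa and G6pc2 were not analysed here. The hormone gene Gcg, which defines alpha cells, had 758 to 966 TPM. The summed TPM of 3 delta and PP cell markers was 0.116 to 0.227 at 8 h and 0.126 to 0.22 at 16 h. The sums were 0.069 to 0.077 and 0.074 to 0.105 for 3 endothelial markers, 0.5 to 0.519 and 0.717 to 0.797 for 4 macrophage markers, 0.053 to 0.069 and 0.047 to 0.052 for 4 fibroblast markers (2 of them at 0 in all 4 libraries), and 0.97 to 1.04 and 1.02 to 1.37 for the 3 duct markers in the table.

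Across the 10275 genes that averaged 1 TPM or more over all libraries, 573 genes (5.58%) were called between 16 h and 8 h, 214 higher (2.08%) and 359 lower (3.49%). A gene was called at a limma adjusted p under 0.05 (Benjamini-Hochberg over the 10275 genes) and a fold change above 1.5, both on the log2(TPM + 1) scale, which understates the change of low genes. The replicates are separate libraries that the labels do not tie to separate cultures. The p-values rest on the spread between duplicates, pooled over the 14 groups of the series and not taken from the 4 libraries alone. That spread may be technical. The 2 libraries of 16 h both lay above those of 8 h for 28% of genes and both below for 47.1%, so that non-overlap alone is common here. The balance of the calls rests on the scaling. The median log2 change of all genes was −0.058 in TPM, 0.0090 after each library was centred on its median, and 0.11 after scaling on the ERCC spike-in, a set of synthetic control RNAs. Centring gave 303 genes higher and 273 lower, and ERCC scaling 495 higher and 184 lower. The ERCC share of fragments was 0.831% ± 0.0401 (SD, n = 2) at 8 h and 0.744% ± 0.0128 (SD, n = 2) at 16 h. All changes below are log2 changes of TPM + 1 unless stated, and are to be read against −0.058. In bulk RNA, fewer cells of a kind and less RNA per cell cannot be told apart.

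**Figure D1:**
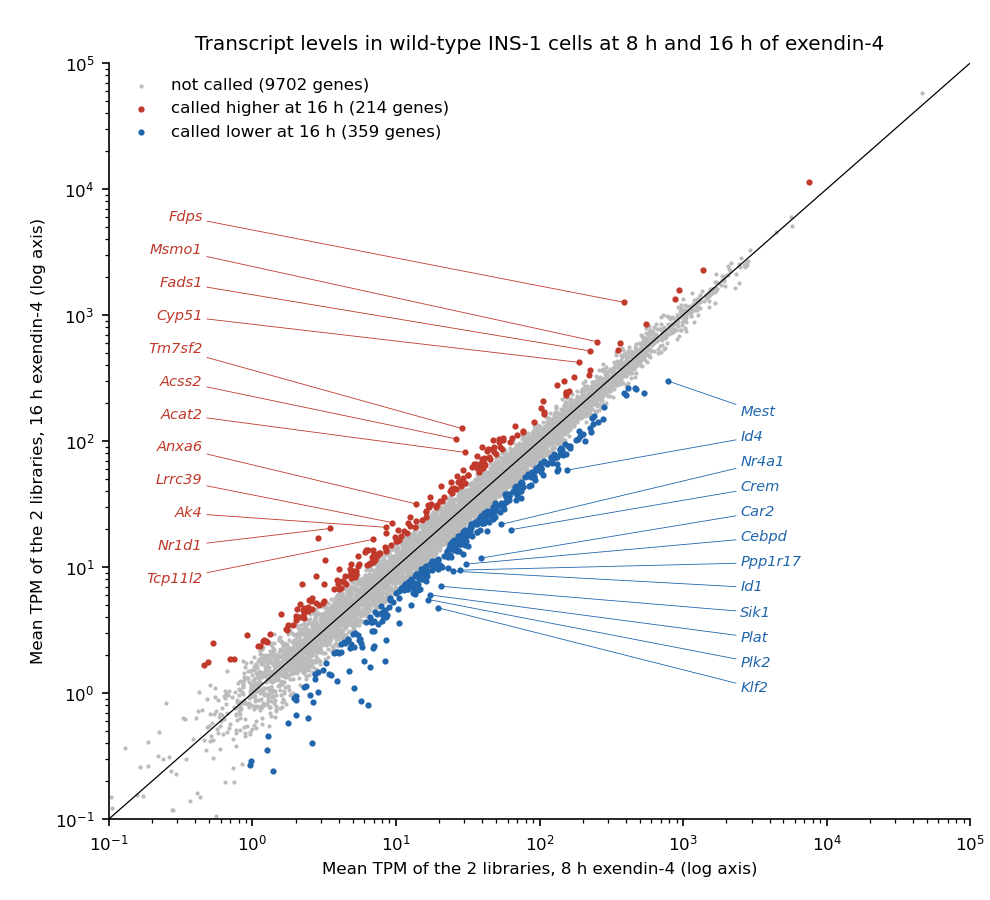
Mean TPM at 16 h (y, log axis) against mean TPM at 8 h (x, log axis) of Ex-4 in WT cells, 2 libraries each, with 1 point per gene, the line of equality and the names of the 12 called rises and 12 called falls that were largest where the 4 libraries averaged 10 TPM or more (genes under 0.1 TPM at either time are outside the axes). The 214 genes called higher in TPM lie above the line and the 359 called lower below it, a split that moved to 303 and 273 after centring.

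Cholesterol synthesis was the list with the most rises. Of its 21 genes, 18 were called higher at 16 h, against 2.08% of all genes, none lower and 3 not called, with a median of 0.96, 1.02 after centring and 1.14 with ERCC scaling. All 21 values were positive under TPM. The study had already reported cholesterol synthesis genes as induced by prolonged Ex-4 in these same libraries. The direction of this list is therefore not independent evidence. Both 16 h libraries lay above both 8 h libraries for 20 of the 21 genes, against 28% of all genes. The chain opens with Acat2 and Hmgcs1, which join acetyl units. Acat2 (NM_001006995, rn6 chromosome 1, 47972399 to 47992654) had 31.7 and 28.3 TPM at 8 h and 83.3 and 79.4 TPM at 16 h, a change of 1.41 (SE 0.058, adjusted p 1.18e-15). Hmgcs1 (NM_017268, rn6 chromosome 2, 52427579 to 52445082) had 147 and 147 TPM at 8 h and 298 and 297 TPM at 16 h, a change of 1.01 (SE 0.054, adjusted p 1.79e-13). Each time point formed a tight pair for both genes, and the pairs were far apart.

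The middle of the pathway turns mevalonate into farnesyl diphosphate, the branch point to sterols and prenyl groups. Fdps (NM_031840, rn6 chromosome 2, 188403595 to 188413219), which encodes farnesyl diphosphate synthase, had 384 and 393 TPM at 8 h and 1252 and 1266 TPM at 16 h, 3.24-fold more in the means. Its change was 1.69 (SE 0.030, adjusted p 4.68e-23). CON cells had 296 and 303 TPM, so most of the difference from CON lay after 8 h. Mvk, Pmvk, Mvd and Idi1, the kinases, decarboxylase and isomerase before it, were called with changes of 0.66, 0.903, 0.88 and 0.96. Ggps1, which leads to geranylgeranyl groups and not to sterols, had 16.8 and 17.9 TPM at 8 h and 18.3 and 17.2 TPM at 16 h, a change of 0.031 (SE 0.068, adjusted p 0.726), and its 2 pairs of libraries overlapped.

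Genes of the sterol branch were also among those called higher. Fdft1, the first enzyme of that branch, had 45.5 and 48.8 TPM at 8 h and 101 and 102 TPM at 16 h, a change of 1.09 (SE 0.042, adjusted p 3.53e-16). Sqle, the squalene epoxidase gene, and Lss, whose enzyme closes the sterol ring, changed by 0.895 and 0.98. Tm7sf2 (NM_001013071, rn6 chromosome 1, 221426017 to 221430340), a sterol C14 reductase, had 28.7 and 28.5 TPM at 8 h and 127 and 125 TPM at 16 h, 4.399-fold more in the means, a change of 2.099 (SE 0.049, adjusted p 1.16e-20). That was the largest rise of the list, from a level at 8 h close to the 24.2 and 22.1 TPM of CON. Msmo1 (NM_080886, rn6 chromosome 16, 26859441 to 26875880), a sterol methyl oxidase, had 239 and 260.3 TPM at 8 h and 610.3 and 619.8 TPM at 16 h, a change of 1.299 (SE 0.051, adjusted p 5.51e-16). Cyp51, which removes the C14 methyl group of lanosterol, had 186 and 188 TPM at 8 h and 416 and 426 TPM at 16 h, a change of 1.17 (SE 0.049, adjusted p 1.72e-15). Unlike Tm7sf2, both already stood above CON at 8 h, where CON had 128 and 126 TPM of Msmo1 and 111 and 109.9 TPM of Cyp51. Hsd17b7, Nsdhl, Ebp, Sc5d and Dhcr7, of the last steps, were called with changes between 0.82 and 1.11.

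The promoters of Fdps and Msmo1 are shown because both genes are among the named rises and both windows hold the CCAAT box, the letters CCAAT on either strand, more than once. The windows come from RefSeq on build GRCr8, not the rn6 build of the expression table, and run from 250 bases before to 50 bases after the annotated start, 5′ to 3′ along the gene. Capitals mark CCAAT or its reverse complement.
Fdps (chr2:176804767-176805066, minus strand): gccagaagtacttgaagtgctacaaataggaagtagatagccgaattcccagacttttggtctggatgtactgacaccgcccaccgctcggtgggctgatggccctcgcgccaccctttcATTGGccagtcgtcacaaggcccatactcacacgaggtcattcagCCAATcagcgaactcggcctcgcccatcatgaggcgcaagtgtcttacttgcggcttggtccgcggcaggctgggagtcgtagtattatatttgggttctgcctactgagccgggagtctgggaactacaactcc
Msmo1 (chr16:29746863-29747162, plus strand): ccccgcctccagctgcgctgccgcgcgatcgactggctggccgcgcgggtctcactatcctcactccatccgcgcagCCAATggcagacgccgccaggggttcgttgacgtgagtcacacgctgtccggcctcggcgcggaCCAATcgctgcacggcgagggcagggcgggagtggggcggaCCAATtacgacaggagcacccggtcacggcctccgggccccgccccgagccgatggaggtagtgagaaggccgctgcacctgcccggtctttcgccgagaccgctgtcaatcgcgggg
The Fdps window holds 2 matches, starting 130 and 85 bases before the start. The Msmo1 window holds 3, starting 173, 109 and 68 bases before it.

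Genes for sterol sensing and uptake changed in part. Of 16 tested, 4 were called higher (2.08% of all genes) and none lower, and the median was 0.18. Insig1, which holds SREBP in the ER when sterol is plentiful and is itself an SREBP target, had 133 and 133 TPM at 8 h and 279 and 277 TPM at 16 h, a change of 1.06 (SE 0.043, adjusted p 1.18e-15). Npc2, which carries cholesterol out of lysosomes, had 45.8 and 41.5 TPM at 8 h and 87.5 and 83.96 TPM at 16 h, a change of 0.96 (SE 0.049, adjusted p 6.94e-14). Both genes had non-overlapping pairs. Lpin1, a phosphatidate phosphatase and coregulator, was called at 0.597 and fell under the limit at 0.57 without replicate 2 of 8 h and 0.51 without replicate 2 of 16 h. The SREBP genes themselves were not called, at 0.42 (SE 0.048) for Srebf2, which passed with ERCC scaling at 0.60, and 0.15 (SE 0.043) for Srebf1. The efflux pumps Abca1 and Abcg1, targets of the sterol receptor LXR, had values of −0.12 and −0.35.

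Fatty acid synthesis had 6 of 17 tested genes called higher (2.08% of all genes) and none lower, with a median of 0.26. The study reported genes of fat synthesis as induced by prolonged Ex-4 too, so this direction is not independent evidence either. Acss2 (NM_001107793, rn6 chromosome 3, 151032952 to 151075856), which makes acetyl-CoA from acetate, had 25.8 and 26.96 TPM at 8 h and 103 and 105 TPM at 16 h, 3.94-fold more in the means. Its change was 1.94 (SE 0.045, adjusted p 1.16e-20), and the 8 h level was slightly under the 30.2 and 28.99 TPM of CON. Fads1, a desaturase of polyunsaturated fatty acids, had 220.2 and 231 TPM at 8 h and 509 and 527 TPM at 16 h, a change of 1.19 (SE 0.038, adjusted p 1.16e-17). Its neighbour in function Fads2 had 348 and 383 TPM at 8 h and 576 and 626 TPM at 16 h, a change of 0.72 (SE 0.048, adjusted p 7.43e-12). Scd2, a stearoyl-CoA desaturase, and Acsl4, which activates arachidonate, changed by 0.74 and 0.73. The citrate carrier Slc25a1 was called at 0.59. Fasn, the fatty acid synthase, had 97.4 and 93.1 TPM at 8 h and 129 and 136 TPM at 16 h and was not called in TPM, at 0.48 (SE 0.049), although it passed with ERCC scaling at 0.66. The carboxylase gene Acaca, at 0.21, and the citrate lyase gene Acly, at 0.053, were not called. None of 17 genes of fatty acid oxidation was called in TPM, and 2 were called higher with ERCC scaling.

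Mitosis and G2 genes fell together. All 22 of the list were called lower and none higher, against 3.49% of all genes, with a median of −0.84. The range ran from −1.14 to −0.67. After centring all 22 stayed called lower, and with ERCC scaling 18 of 22 did, with a median of −0.66. Both 16 h libraries lay under both 8 h libraries for each of the 22 genes, against 47.1% of all genes. Ube2c, the ubiquitin-conjugating enzyme of the anaphase-promoting complex, had 508 and 560.1 TPM at 8 h and 236 and 247 TPM at 16 h, a change of −1.14 (SE 0.043, adjusted p 3.11e-16). CON cells had 326 and 339 TPM of it, so the level was above CON at 8 h and under it at 16 h. Ccna2, the cyclin of S and G2 phase, had 202 and 213 TPM at 8 h and 100.2 and 100.4 TPM at 16 h, a change of −1.04 (SE 0.040, adjusted p 3.20e-16). CON had 201 and 197 TPM, near the 8 h values. Cdk1 (NM_019296, rn6 chromosome 20, 20576377 to 20591509), the kinase that starts mitosis, had 457 and 470.2 TPM at 8 h and 257 and 266 TPM at 16 h, a change of −0.83 (SE 0.031, adjusted p 2.88e-16). Its CON values were 381 and 385 TPM. Top2a, which untangles chromosomes, had 229.5 and 229 TPM at 8 h and 115 and 121 TPM at 16 h, a change of −0.96 (SE 0.046, adjusted p 2.26e-14). Cdca3, a mitotic entry factor, had 64.3 and 72.6 TPM at 8 h and 33.8 and 33.9 TPM at 16 h, a change of −0.99 (SE 0.052, adjusted p 9.42e-14), and the proliferation marker Mki67 had 59.8 and 63.6 TPM at 8 h and 32.9 and 35.5 TPM at 16 h, a change of −0.83 (SE 0.055, adjusted p 7.97e-12). The duplicates of each time stood close together in these 6 genes, and the times far apart.

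The Cdk1 promoter is shown because it carries more than 1 copy both of the CCAAT box and of the CHR, the letters TTTGAA, an element known from genes of the late cell cycle. Capitals mark either motif on either strand, in the same kind of RefSeq GRCr8 window.
Cdk1 (chr20:19265043-19265342, plus strand): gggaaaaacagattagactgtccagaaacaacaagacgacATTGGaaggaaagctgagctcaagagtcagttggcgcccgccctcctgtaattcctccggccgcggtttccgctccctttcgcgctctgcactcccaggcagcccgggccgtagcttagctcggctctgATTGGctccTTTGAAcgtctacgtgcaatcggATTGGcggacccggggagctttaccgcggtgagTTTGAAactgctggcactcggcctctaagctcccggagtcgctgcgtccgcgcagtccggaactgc
The CCAAT matches start 210, 81 and 49 bases before the gene's start, and the CHR matches 72 and 16 bases before it.

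Of 28 tested DNA replication genes, 5 were called lower, against 3.49% of all genes, and none higher. All 28 had negative values in TPM, with a median of −0.399, where 6256 of the 10275 genes had negative values. The 5 were Mcm5 of the replicative helicase at −0.66, the ribonucleotide reductase subunits Rrm2 at −0.65 and Rrm1 at −0.61, Gins1 at −0.61 and the origin factor Orc1 at −0.61. All 5 lay close to the 1.5-fold limit, 1 stayed called after centring and 0 with ERCC scaling, where the median was −0.22. Orc1 was at −0.58 without replicate 2 of 8 h and at −0.51 without replicate 1 of 16 h, under the limit. Pcna, the sliding clamp, had 671 and 666 TPM at 8 h and 497 and 507 TPM at 16 h and was not called, at −0.41 (SE 0.035). Of 11 G1 cyclins and inhibitors, 2 were called, both lower (3.49% of all genes). Ccnd1, cyclin D1, had 4.71 and 4.69 TPM at 8 h and 1.43 and 1.55 TPM at 16 h, against 0.5 and 0.36 TPM in CON, a change of −1.195 (SE 0.083, adjusted p 1.70e-11). Cdkn2c, an inhibitor of CDK4 and CDK6, had 69.7 and 69.4 TPM at 8 h and 42.3 and 41.5 TPM at 16 h, a change of −0.72 (SE 0.044, adjusted p 1.70e-12). Cdkn2c fell under the limit with ERCC scaling, at −0.54.

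**Figure D2:**
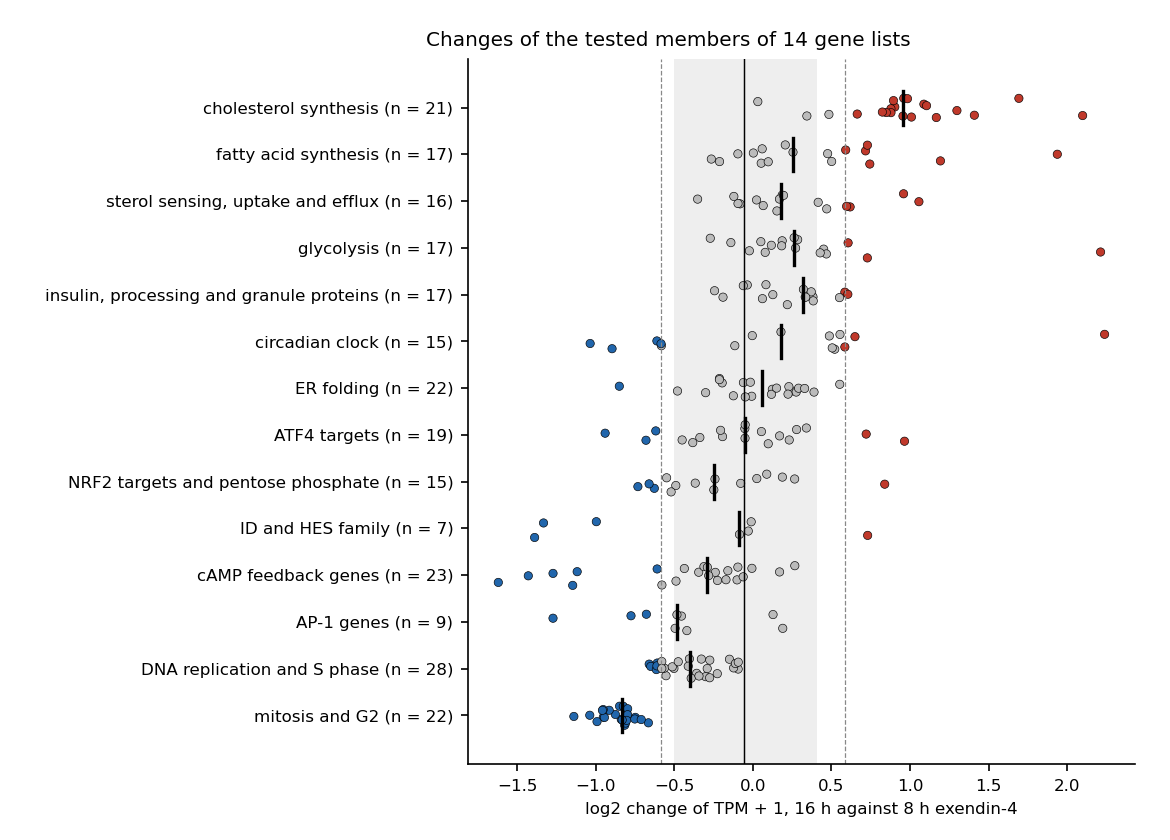
The log2 change of TPM + 1 from 8 h to 16 h of Ex-4 in WT cells (x) for each tested member of 14 lists (y), 1 point per gene, red where called higher, blue where called lower and grey otherwise. The short black bars are list medians, the thin vertical line is the median of all tested genes, −0.058, and the shaded band holds the middle 90% of all tested genes while dashed lines mark 1.5-fold. The 22 mitosis genes all lie left of the dashed line and 18 of the 21 cholesterol genes right of the other, in TPM. With ERCC scaling 18 of the 22 mitosis genes stayed called.

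Some genes of the cAMP feedback list fell. Of 23 tested members 6 were called lower (3.49% of all genes) and none higher, with a median of −0.29, −0.22 after centring and −0.13 with ERCC scaling. The study chose part of this list and of the AP-1 list from these same libraries, so their direction is not independent evidence. Crem (NM_001271102, rn6 chromosome 17, 57074525 to 57090888), whose short forms repress CREB targets, had 61.6 and 64.02 TPM at 8 h and 20.2 and 19.3 TPM at 16 h, a change of −1.62 (SE 0.081, adjusted p 4.80e-14). CON cells had 11.7 and 10.6 TPM and cells at 1 h of Ex-4 172 and 186 TPM, so the 16 h level was nearer to CON than the 8 h level was. Sik1, a kinase that keeps CRTC proteins out of the nucleus, had 21.5 and 19.7 TPM at 8 h and 6.68 and 7.36 TPM at 16 h, a change of −1.43 (SE 0.1, adjusted p 1.93e-11). Nr4a1 (NM_024388, rn6 chromosome 7, 142912309 to 142920215), an orphan nuclear receptor of the immediate early response, had 52.1 and 56.2 TPM at 8 h and 21.4 and 22.2 TPM at 16 h, a change of −1.27 (SE 0.083, adjusted p 5.67e-12). In CON, Nr4a1 had 17.3 and 18.4 TPM, and after 1 h of Ex-4 532 and 632 TPM. Rgs2, which limits signalling through G proteins, had 23.4 and 22.3 TPM at 8 h and 10.4 and 9.16 TPM at 16 h, a change of −1.15 (SE 0.080, adjusted p 2.10e-11). Nr4a3 was called at −1.12, and the phosphodiesterase gene Pde10a at −0.61, next to the limit. Pde10a was at −0.54 without replicate 1 of 8 h, −0.57 without replicate 1 of 16 h, −0.54 after centring and −0.43 with ERCC scaling, and lost its call in each case. Irs2, an adaptor of insulin signalling, and Dusp1, a phosphatase of MAP kinases, were not called, at −0.44 (SE 0.054) and −0.35 (SE 0.052).

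None of the 17 tested genes of the receptor, adenylyl cyclases and protein kinase A was called. Glp1r, the Ex-4 receptor, had 100.2 and 98.7 TPM at 8 h and 99.95 and 104 TPM at 16 h, a change of 0.038 (SE 0.038, adjusted p 0.414). Its 2 pairs of libraries overlapped.

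The promoters of Nr4a1 and Plk2, both among the named falls, are shown for their cAMP response elements. The full element (CRE) is TGACGTCA, and the short CRE is TGACG, which the full element contains. Capitals mark the short element on either strand in Nr4a1 and the full element in Plk2.
Nr4a1 (chr7:134259888-134260187, plus strand): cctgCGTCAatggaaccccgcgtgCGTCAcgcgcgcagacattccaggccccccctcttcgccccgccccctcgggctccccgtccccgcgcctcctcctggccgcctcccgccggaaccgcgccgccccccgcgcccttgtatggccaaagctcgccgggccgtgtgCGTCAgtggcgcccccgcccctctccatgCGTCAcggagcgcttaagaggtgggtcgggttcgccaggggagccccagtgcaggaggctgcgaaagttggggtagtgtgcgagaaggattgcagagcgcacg
Plk2 (chr2:43702286-43702585, plus strand): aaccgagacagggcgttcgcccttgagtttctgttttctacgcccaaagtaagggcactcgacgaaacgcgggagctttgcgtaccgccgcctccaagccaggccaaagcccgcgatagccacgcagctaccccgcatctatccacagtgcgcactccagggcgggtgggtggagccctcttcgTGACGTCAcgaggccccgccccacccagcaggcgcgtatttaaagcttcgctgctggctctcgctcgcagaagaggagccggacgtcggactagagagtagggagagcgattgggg
The Nr4a1 window holds 4 short elements, starting 246, 226, 82 and 53 bases before the start and all on the reverse strand. The Plk2 window holds 1 full element, starting 66 bases before it. Plk2, a kinase of the Polo family that acts outside mitosis too, had 16.6 and 16.98 TPM at 8 h and 5.76 and 5.29 TPM at 16 h, a change of −1.45 (SE 0.067, adjusted p 1.03e-14).

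AP-1 genes had 3 of 9 members called lower (3.49% of all genes) and none higher, with a median of −0.48. Fos had 6.802 and 7.05 TPM at 8 h and 2.24 and 2.32 TPM at 16 h, against 2.16 and 1.91 TPM in CON and 45.1 and 47.1 TPM at 1 h, a change of −1.27 (SE 0.104, adjusted p 2.71e-10). The 16 h libraries of Fos lay just above CON and the 8 h libraries above those. Fosl2 had 13.8 and 12.8 TPM at 8 h and 7.08 and 7.68 TPM at 16 h, a change of −0.78 (SE 0.081, adjusted p 2.14e-08). Batf3 was called at −0.68 and was at −0.50 with ERCC scaling, under the limit. Jun had a value of 0.19 and Atf3 of 0.13, neither called.

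The study followed 3 genes as delayed-early cAMP targets, by quantitative PCR over 8 h of treatment. Of these 3, Kdr and Plat were called lower (3.49% of all genes). Kdr, a receptor of vascular endothelial growth factor, had 6.19 and 6.64 TPM at 8 h and 0.796 and 0.82 TPM at 16 h, against 0.399 and 0.41 TPM in CON, a change of −2.04 (SE 0.087, adjusted p 2.79e-15). It was the largest fall among the 10275 genes on the log2(TPM + 1) scale. Plat, tissue plasminogen activator, had 16.4 and 18.2 TPM at 8 h and 5.51 and 6.49 TPM at 16 h, against 0.955 and 1.08 TPM in CON, a change of −1.39 (SE 0.092, adjusted p 6.60e-12). The 8 h level was thus the higher of the 2 times in both genes. Osbpl6, a lipid transfer protein gene, had 9.93 and 9.496 TPM at 8 h and 6.14 and 6.54 TPM at 16 h and was not called, at −0.55 (SE 0.091), but passed at −0.59 without replicate 2 of 16 h.

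Other transcription regulators fell among the 12 named falls. Klf2, a Krüppel-like factor, had 21.2 and 17.8 TPM at 8 h and 5.28 and 4.23 TPM at 16 h, a change of −1.84 (SE 0.13, adjusted p 1.74e-11). CON had 11.8 and 15.1 TPM, between the times. Cebpd, a C/EBP factor, had 30.7 and 30.8 TPM at 8 h and 10.9 and 10.2 TPM at 16 h, a change of −1.46 (SE 0.078, adjusted p 1.70e-13), from 82.3 and 83.5 TPM at 1 h. Of 7 ID and HES genes, 3 were called lower and 1 higher, against 3.49% and 2.08% of all genes. Id1, Id3 and Id4 encode proteins that block basic helix-loop-helix factors. Id4 had 159 and 152 TPM at 8 h and 61.04 and 56.3 TPM at 16 h, a change of −1.39 (SE 0.062, adjusted p 6.16e-15). Id1 had 25.05 and 24.7 TPM at 8 h and 8.75 and 9.8 TPM at 16 h, a change of −1.33 (SE 0.096, adjusted p 3.02e-11), and stood under its CON level of 21.3 and 23.3 TPM at 16 h. Id3 changed by −0.997 and Id2 by −0.086, the latter not called. Hes6 was the member called higher, with 34.5 and 29.4 TPM at 8 h and 54.1 and 53.01 TPM at 16 h, a change of 0.73 (SE 0.058, adjusted p 1.88e-10). The remaining named falls were Car2, Ppp1r17 and Mest. Car2, a carbonic anhydrase, had 38.5 and 39.6 TPM at 8 h and 11.9 and 11.6 TPM at 16 h, a change of −1.65 (SE 0.062, adjusted p 2.88e-16). Ppp1r17, a phosphatase inhibitor, had 28.5 and 27 TPM at 8 h and 9.49 and 9.39 TPM at 16 h, a change of −1.46 (SE 0.089, adjusted p 1.75e-12). Mest, an imprinted gene, had 770.1 and 792 TPM at 8 h and 284 and 316 TPM at 16 h, a change of −1.38 (SE 0.053, adjusted p 3.50e-16). Mest had 96.98 and 94.9 TPM in CON, so its 16 h libraries were still above CON.

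**Figure D3:**
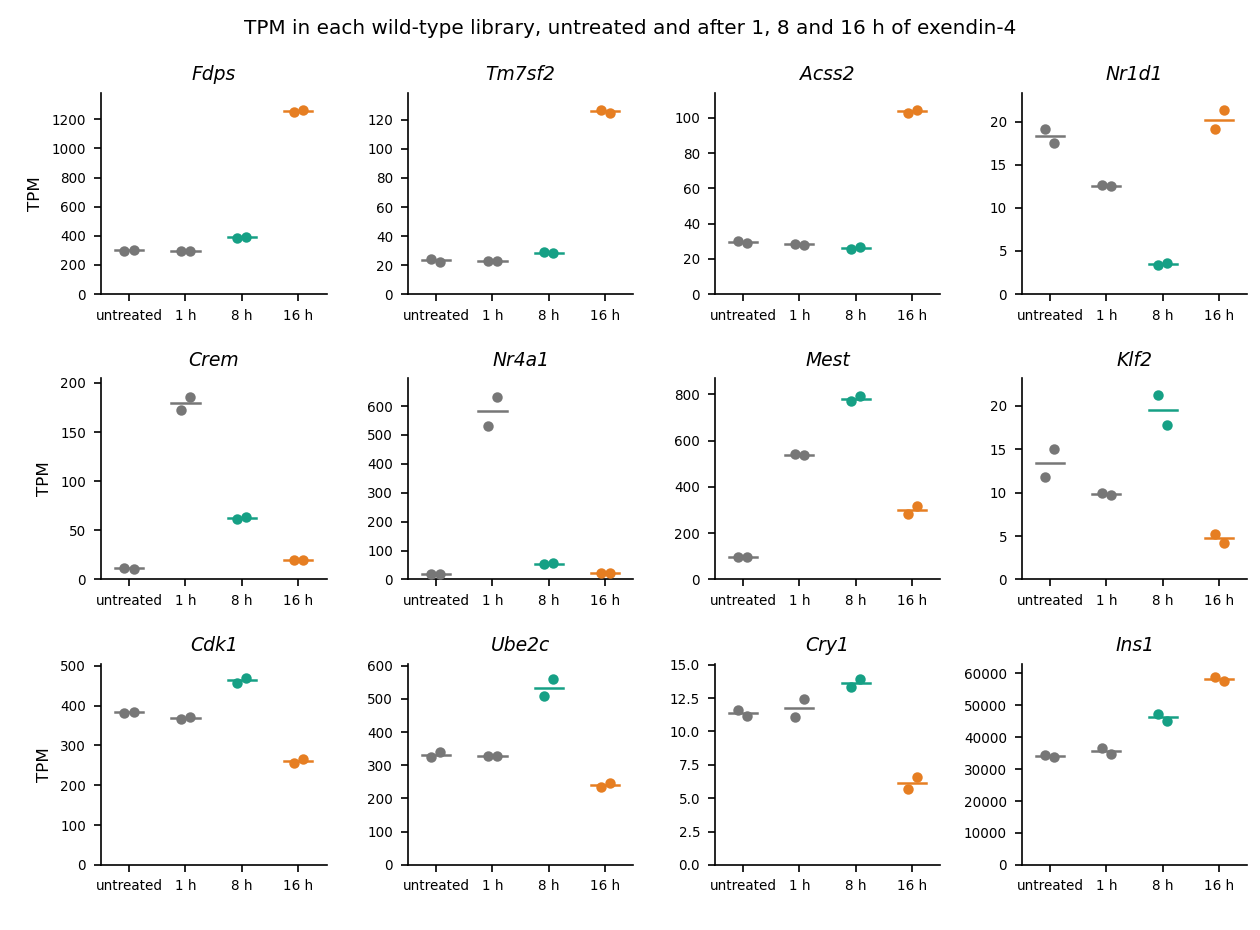
TPM (y, from 0) of 12 genes in each of 2 WT libraries, untreated and after 1, 8 and 16 h of Ex-4 (x). Points are libraries and bars their means, with 8 h in green and 16 h in orange. Fdps, Tm7sf2 and Acss2 are highest at 16 h, Crem and Nr4a1 peak at 1 h, Mest is highest at 8 h, and Nr1d1 is lowest at 8 h.

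Clock genes moved in both directions. Of 15 tested, 3 were called higher and 4 lower, against 2.08% and 3.49% of all genes, 5 and 2 after centring and 7 and 2 with ERCC scaling. Nr1d1 (NM_001113422, rn6 chromosome 10, 86683875 to 86690815), which encodes the repressor REV-ERBα, had 3.42 and 3.57 TPM at 8 h and 19.2 and 21.3 TPM at 16 h, 5.79-fold more in the means, a change of 2.24 (SE 0.084, adjusted p 2.88e-16). On the log2(TPM + 1) scale it was the largest rise among the 10275 genes, just ahead of Aldoc at 2.21, and the order of these genes turned with a pseudocount of 0.1 TPM, without replicate 1 of 8 h, and in edgeR and DESeq2. The CON libraries had 19.1 and 17.6 TPM, so the 16 h level was near CON and the 8 h level far under it. Dbp, an output of the clock that activates genes with D-boxes, had 56.8 and 52.7 TPM at 8 h and 85.9 and 86.96 TPM at 16 h, a change of 0.65 (SE 0.072, adjusted p 6.18e-08). Bhlhe40, a repressor of the clock, was called at 0.59 and fell under the limit at 0.58 without replicate 1 of 8 h and 0.54 without replicate 2 of 16 h. Cry1, a repressor of CLOCK and BMAL1, had 13.3 and 13.9 TPM at 8 h and 5.68 and 6.61 TPM at 16 h, a change of −1.04 (SE 0.072, adjusted p 1.98e-11). Per2 had 9 and 8.31 TPM at 8 h and 4.04 and 4.33 TPM at 16 h, a change of −0.897 (SE 0.086, adjusted p 5.00e-09). Both Cry1 and Per2 were under their CON levels of 11.6 and 11.2 and 7.32 and 7.23 TPM at 16 h. Per1, which is also a CREB target, was called at −0.61 and Nfil3 at −0.58. Both lost the call after centring, at −0.54 and −0.52, and Nfil3 also without replicate 2 of 8 h, at −0.52, or replicate 2 of 16 h, at −0.57. Arntl, the gene of BMAL1, had 22.5 and 22.99 TPM at 8 h and 22.3 and 23.1 TPM at 16 h, overlapping pairs, and Clock a value of −0.12.

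One of the 2 RefSeq GRCr8 windows of Nr1d1 is shown because it carries the E-box CACGTG, the element that CLOCK and BMAL1 bind. Capitals mark it, and it reads the same on both strands.
Nr1d1 (chr10:84229405-84229704, minus strand): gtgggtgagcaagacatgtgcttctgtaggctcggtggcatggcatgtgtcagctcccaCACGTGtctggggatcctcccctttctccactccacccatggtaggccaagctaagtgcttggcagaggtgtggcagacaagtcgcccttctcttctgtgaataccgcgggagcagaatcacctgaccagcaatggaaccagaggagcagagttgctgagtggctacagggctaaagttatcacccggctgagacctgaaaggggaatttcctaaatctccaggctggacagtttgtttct
The match starts 191 bases before that start. The other Nr1d1 window holds no CACGTG.

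Of 17 tested genes of glycolysis, 3 were called higher (2.08% of all genes) and none lower, with a median of 0.26. With ERCC scaling 6 were called higher, where 495 of all genes were. Induction of glycolytic genes by Ex-4 was also reported by the study, so this direction is not independent evidence. Aldoc, aldolase C, had 3.24 and 2.52 TPM at 8 h and 17 and 16.8 TPM at 16 h, a change of 2.21 (SE 0.083, adjusted p 2.88e-16), from the low level of 8 h. Aldoa, the abundant aldolase, had 1369.8 and 1392 TPM at 8 h and 2264 and 2315 TPM at 16 h, a change of 0.73 (SE 0.046, adjusted p 3.51e-12). Gpi, which interconverts glucose and fructose phosphates, had 538 and 569 TPM at 8 h and 819 and 866 TPM at 16 h, a change of 0.61 (SE 0.045, adjusted p 5.62e-11). Gpi was at 0.57 without replicate 1 of 8 h or replicate 2 of 16 h, under the limit. The glucose transporter Slc2a2 was not called, at −0.27. No gene was called among 18 of pyruvate entry, 18 of the TCA cycle and 7 of glucose sensing by ChREBP. Txnip, a ChREBP target, had 47.3 and 44.95 TPM at 8 h and 33.1 and 32.8 TPM at 16 h, against 329 and 312 TPM in CON, and was not called at −0.47 (SE 0.084). In the pentose phosphate and NRF2 list, 1 of 15 was called higher and 3 lower, against 2.08% and 3.49% of all genes. Pgd, of the pentose phosphate pathway, had 37.1 and 35.5 TPM at 8 h and 63.2 and 68.3 TPM at 16 h, a change of 0.84 (SE 0.042, adjusted p 4.59e-14). Srxn1, Gclm and Gclc, which act against oxidants and make glutathione, were called at −0.73, −0.66 and −0.63. These 3 lost the call with ERCC scaling, at −0.55, −0.48 and −0.46, and Gclc also after centring, at −0.56, and without replicate 1 of 16 h, at −0.58.

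Insulin genes and granule proteins had 2 of 17 tested members called higher (2.08% of all genes) and none lower, with a median of 0.32. Ins1 (NM_019129, rn6 chromosome 1, 272799784 to 272800349) had 47434 and 45098 TPM at 8 h and 58758 and 57777 TPM at 16 h, a change of 0.33 (SE 0.055, adjusted p 1.85e-05), under 1.5-fold although the pairs did not overlap. Ins2 (NM_019130, rn6 chromosome 1, 215856967 to 215858034) had 2489 and 2453 TPM at 8 h and 2463 and 2359 TPM at 16 h, a change of −0.036 (SE 0.057, adjusted p 0.618), with overlapping pairs. The insulin genes are close copies, so reads could have been split between them, and the Ins1 and Ins2 values are uncertain for that reason. Iapp, islet amyloid polypeptide, had 7186 and 7881 TPM at 8 h and 11417 and 11171 TPM at 16 h, a change of 0.59 (SE 0.045, adjusted p 9.37e-11). Pcsk2, a proinsulin convertase, had 883 and 875 TPM at 8 h and 1318 and 1357 TPM at 16 h, a change of 0.604 (SE 0.035, adjusted p 5.55e-13). Both stood at the limit and did not pass it in every fit, with Iapp at 0.52 without replicate 1 of 8 h and 0.57 without replicate 1 of 16 h, and Pcsk2 at 0.58 without replicate 2 of 16 h. The 15 tested beta cell markers and their untested member summed to 58417 to 60099 TPM at 8 h and 75002 to 76212 TPM at 16 h. Most of each sum was Ins1, with the uncertainty given above. Of the 15 tested markers 2 were called, both higher, and 4 had negative values, with a median of 0.15. The summed TPM of the 6 alpha cell markers was 764 to 923 at 8 h and 956 to 976 at 16 h, nearly all of it Gcg. Of these 6 markers 2 were tested and 1 was called higher (2.08% of all genes). Of 7 acinar markers 1 was tested, Ctrb1, and it was called at 0.71 (2.08% of all genes were called higher). The 7 markers summed to 4.78 to 5.36 TPM at 8 h and 8.34 to 9.03 TPM at 16 h, with 3 members at 0. Their part in the result was not tested. Among 9 tested neuropeptide genes, Tac1 and Cck were called lower (3.49% of all genes) and Pthlh higher (2.08% of all genes). Tac1, which encodes substance P, had 27.6 and 22.9 TPM at 8 h and 14.2 and 13.1 TPM at 16 h, a change of −0.84 (SE 0.093, adjusted p 6.11e-08). Cck, cholecystokinin, had 236 and 242 TPM at 8 h and 158 and 158 TPM at 16 h, against 24.1 and 25.5 TPM in CON. Its change was −0.59 (SE 0.051, adjusted p 7.54e-10), at −0.52 after centring and −0.57 without replicate 2 of 8 h, under the limit. Pthlh was called at 0.65 from levels of 2.88 and 2.04 TPM at 8 h and 5.1 and 3.78 TPM at 16 h, and was at 0.48 without replicate 2 of 8 h or replicate 1 of 16 h. None of 13 channel genes was called in TPM, and 1 was called higher with ERCC scaling. Of 20 exocytosis genes 2 were called, where 5.58% of all genes were. Cadps rose by 0.698 and Syt4 was called at −0.73, which ERCC scaling took to −0.55.

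Single genes were called in the lists of ER folding, ER stress, insulin and IGF signalling, Mediator and beta cell transcription factors. Over all genes 5.58% were called, so these counts are near the background. Of 18 tested beta cell transcription factors 1 was called, higher, and the median was 0.028. In the ER, Creld2 was called lower, the 1 call among 22 folding genes. Of these genes 11 had positive and 11 negative values, with a median of 0.055. After centring or with ERCC scaling 1 member was called higher and 1 lower. Creld2 had 471 and 468 TPM at 8 h and 265 and 254 TPM at 16 h, against 178 and 187 TPM in CON, a change of −0.85 (SE 0.039, adjusted p 8.30e-15). The chaperone Hspa5 had 2258 and 2316 TPM at 8 h and 1622 and 1656 TPM at 16 h and was not called, at −0.48 (SE 0.046). Among 14 genes of ER stress sensing and degradation, Derl3 was called, with 14.6 and 14.9 TPM at 8 h and 6.88 and 6.49 TPM at 16 h, a change of −1.04 (SE 0.059, adjusted p 3.98e-13). Of 19 tested ATF4 targets 2 were called higher and 3 lower, against 2.08% and 3.49% of all genes. Chac1, which degrades glutathione, had 4.87 and 4.89 TPM at 8 h and 11.2 and 9.77 TPM at 16 h, a change of 0.97 (SE 0.087, adjusted p 1.72e-09), and Trib3, a pseudokinase, changed by 0.72. Cebpb had 14.4 and 12.6 TPM at 8 h and 6.505 and 6.57 TPM at 16 h, a change of −0.94 (SE 0.13, adjusted p 1.27e-06). Psat1, of serine synthesis, was called at −0.68 and the cystine carrier Slc7a11 at −0.62, and both lost the call with ERCC scaling, at −0.50 and −0.53, Slc7a11 also after centring, at −0.55. Of 15 genes of insulin and IGF signalling Igf1r was called, at −0.68, and was at −0.50 with ERCC scaling. Of 30 Mediator genes Med30 was called, with 35.3 and 38.5 TPM at 8 h and 19.7 and 18.4 TPM at 16 h, a change of −0.92 (SE 0.053, adjusted p 5.45e-13). The gene of Med14 (NM_001191727, rn6 chromosome X, 10964035 to 11080894) stood at 23.1 and 24.96 TPM at 8 h and 17.2 and 19.5 TPM at 16 h and was not called, at −0.37 (SE 0.067). No member was called in TPM of the lists of tRNA synthetases, the BCL2 family, cytosolic heat shock, lysosome and autophagy, interferon response, ribosomal proteins of cytosol and mitochondria, the respiratory chain and the proteasome. Of the 18 tested lysosome and autophagy genes 15 had positive values, with a median of 0.26. After centring 1 of them was called higher, and with ERCC scaling 4, where 495 of all genes were called higher.

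The remaining named rises belonged to none of the lists. Lrrc39 had 8.88 and 9.82 TPM at 8 h and 22.3 and 22.8 TPM at 16 h, a change of 1.19 (SE 0.080, adjusted p 9.62e-12), and CON 31.7 and 29.3 TPM. Ak4, a mitochondrial adenylate kinase, had 9.18 and 7.96 TPM at 8 h and 19.7 and 21.6 TPM at 16 h, a change of 1.18 (SE 0.12, adjusted p 1.75e-08). Tcp11l2 had 7.49 and 6.33 TPM at 8 h and 15.96 and 17.2 TPM at 16 h, a change of 1.15 (SE 0.088, adjusted p 8.17e-11), and CON 20.6 and 20.9 TPM. Lrrc39 and Tcp11l2 thus had their lowest level at 8 h and at 16 h were still under CON. Anxa6, a membrane-binding annexin, had 13.8 and 13.8 TPM at 8 h and 31.1 and 32.2 TPM at 16 h, a change of 1.14 (SE 0.055, adjusted p 2.14e-14), above the 11.3 and 12.4 TPM of CON.

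The next comparison asked whether the change from 8 h to 16 h of Ex-4 differed between WT and Med14 S983A cells. In Med14 S983A cells 128 genes were higher (1.25%) and 279 lower (2.72%) at 16 h, 3.96% in all. A contrast of the 2 changes, which share no library, called 277 genes (2.70%), 103 with a more positive change in WT (1.00%) and 174 with a more negative one (1.69%). That balance rested on scaling, with 156 and 146 after centring and 790 and 63 with ERCC scaling, under which the median difference over all genes was 0.27. The ERCC share in Med14 S983A cells was 0.801% ± 0.0439 (SD, n = 2) at 8 h and 0.887% ± 0.0958 (SD, n = 2) at 16 h. The lines also differed at matched times in their Ins2 values, with 27475 and 26489 TPM at 8 h and 20103 and 20500.4 TPM at 16 h in Med14 S983A cells. These values are uncertain, because reads could have been split between Ins1 and Ins2.

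Most cholesterol synthesis genes rose more in WT. Against the WT median of 0.96, the list had a median of 0.28 in the knock-in cells, where 3 of 21 genes were called higher (1.25% of all genes). The difference was called in 13 of 21 genes, all with the larger rise in WT (1.00% of all genes), in 16 after centring and in 18 with ERCC scaling. A blunted response of these genes in the knock-in cells was reported by the study from the same libraries. The direction of the difference is therefore not independent evidence. For Fdps the knock-in libraries had 602 and 616 TPM at 8 h and 982 and 1015 TPM at 16 h, and the difference of changes was 0.98 (SE 0.042, adjusted p 6.37e-14). For Hmgcs1 they had 128 and 135 TPM at 8 h and 155 and 145 TPM at 16 h, a difference of 0.82 (SE 0.077, adjusted p 2.55e-08). For Tm7sf2 they had 46.3 and 50.2 TPM at 8 h and 132 and 129 TPM at 16 h, a difference of 0.68 (SE 0.069, adjusted p 8.61e-08). The 16 h level of Tm7sf2 was thus similar in both lines and the knock-in cells started higher at 8 h, whereas Hmgcs1 ended far under WT. Acss2 and Fads1 also differed, by 0.79 (SE 0.064, adjusted p 3.99e-09) and 0.85 (SE 0.054, adjusted p 6.86e-11).

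Mitosis genes fell in both lines. All 22 were called lower in Med14 S983A cells too (2.72% of all genes), with a median of −0.98. The difference of changes was called in 0 of 22 (2.70% of all genes), with 1 called under ERCC scaling. Cdk1 had 346 and 348 TPM at 8 h and 186 and 193 TPM at 16 h there, and its difference was 0.044 (SE 0.043, adjusted p 0.498). For Ube2c the difference was 0.025 (SE 0.061, adjusted p 0.813). The clock gene Nr1d1 had 5.82 and 5.24 TPM at 8 h and 26.5 and 27.8 TPM at 16 h, a difference of 0.13 (SE 0.12, adjusted p 0.473).

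The cAMP feedback genes differed in 9 of 23 members, each with the more negative change in WT (1.69% of all genes), 9 after centring and 6 with ERCC scaling. The list's median difference was −0.27 in TPM and −0.23 after centring but 0.031 with ERCC scaling, so a direction for the list as a whole is not given. Crem had 34.1 and 36.6 TPM at 8 h and 38.8 and 35.9 TPM at 16 h in Med14 S983A cells, and its difference was −1.696 (SE 0.12, adjusted p 1.80e-10). Nr4a1 had 39.5 and 39.1 TPM at 8 h and 50.3 and 42.4 TPM at 16 h, a difference of −1.5 (SE 0.12, adjusted p 2.29e-09). Fos had 5.23 and 5.16 TPM at 8 h and 7.11 and 4.91 TPM at 16 h, a difference of −1.43 (SE 0.15, adjusted p 1.00e-07). In these 3 genes the WT level at 8 h was the higher of the 2 lines and the WT level at 16 h the lower. Kdr stood at 0.119 and 0.246 TPM at 8 h and 0.038 and 0.075 TPM at 16 h and Plat at 0.116 and 0.182 TPM at 8 h and 0.211 and 0.149 TPM at 16 h in the knock-in cells, very low at both times, with differences of −1.87 (SE 0.12, adjusted p 1.19e-10) and −1.43 (SE 0.13, adjusted p 1.59e-08).

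Of the 5 genes with the largest positive difference, Aldoc, Nxph4, Ak4 and Pcp4l1 rose in WT, while Mt1 fell in both lines. Aldoc had 10.2 and 8.695 TPM at 8 h and 14.95 and 15.4 TPM at 16 h in Med14 S983A cells, a difference of 1.58 (SE 0.12, adjusted p 8.09e-10). Mt1, a metallothionein, had 129.8 and 133 TPM at 8 h and 54.5 and 61.4 TPM at 16 h in WT and 132 and 113 TPM at 8 h and 16.2 and 24.5 TPM at 16 h in Med14 S983A cells, a difference of 1.39 (SE 0.15, adjusted p 3.70e-07). Nxph4 had 5.37 and 5.43 TPM at 8 h and 12.5 and 11.98 TPM at 16 h in WT and 18.3 and 17.2 TPM at 8 h and 13.2 and 15.3 TPM at 16 h in the knock-in cells, a difference of 1.35 (SE 0.13, adjusted p 2.54e-08). The knock-in libraries of Nxph4 already exceeded the WT 16 h level at 8 h. Ak4 and Pcp4l1 differed by 1.302 and 1.16.

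The 5 with the largest negative difference were Ifi27l2b, Crem, Stk32a, Atf3 and Tac1. Ifi27l2b, an interferon-inducible gene, had 11.3 and 10.4 TPM at 8 h and 11.2 and 10.2 TPM at 16 h in WT, with overlapping pairs, and 14.2 and 13.9 TPM at 8 h and 69.2 and 70.1 TPM at 16 h in Med14 S983A cells. Its difference was −2.25 (SE 0.199, adjusted p 1.20e-08). Atf3, a stress-induced factor, had 5.58 and 5.08 TPM at 8 h and 5.36 and 6.51 TPM at 16 h in WT, also overlapping, and 9.196 and 10.9 TPM at 8 h and 35.1 and 31.2 TPM at 16 h in the knock-in cells, a difference of −1.502 (SE 0.14, adjusted p 1.57e-08). Stk32a and Tac1 were called lower in WT at −0.79 and −0.84 and higher in Med14 S983A cells at 0.77 and 0.66. ATF4 targets differed in 10 of 19 tested members, each more negative in WT (1.69% of all genes), and in 10 after centring and 3 with ERCC scaling. Slc7a11 had 7.92 and 8.51 TPM at 8 h and 16.5 and 13.8 TPM at 16 h in Med14 S983A cells, a difference of −1.42 (SE 0.12, adjusted p 8.61e-09).

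**Figure D4:**
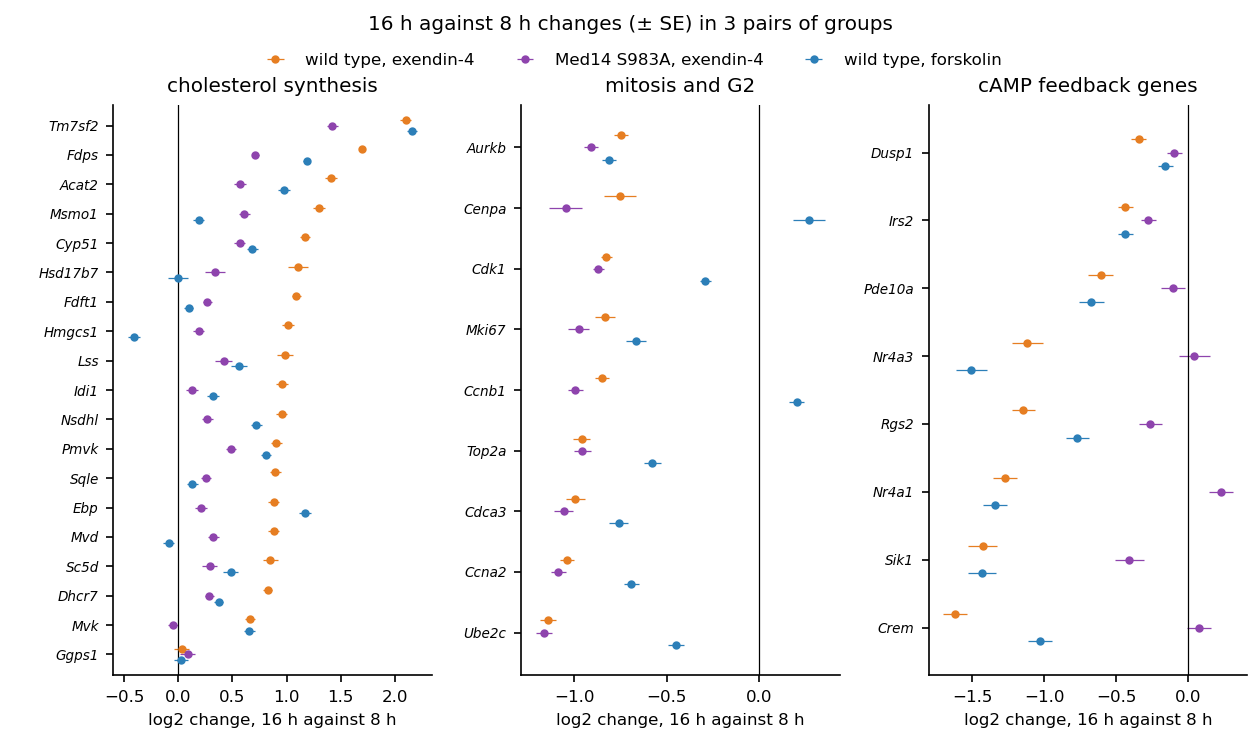
The log2 change of TPM + 1 (x) from 8 h to 16 h for the members of 3 lists that are named in the text (y), in WT cells with Ex-4 (orange), Med14 S983A cells with Ex-4 (purple) and WT cells with FSK (blue), with bars of 1 SE from the limma fit. In TPM, each cholesterol gene but Ggps1 lies farther right with Ex-4 in WT than in Med14 S983A cells, the mitosis genes shown lie left of 0 in both, and Crem and Nr4a1 fell in WT with either agent.

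The last comparison set the later hours of Ex-4 beside those of FSK in WT cells. With FSK, 1434 genes were higher (14%) and 372 lower (3.62%) at 16 h than at 8 h, 17.6% in all. The contrast of the 2 changes, which again share no library, called 1380 genes (13.4%), 186 more positive with Ex-4 (1.81%) and 1194 more negative (11.6%). Here too the balance moved with scaling, to 449 and 424 after centring and to 102 and 2507 with ERCC scaling, and the median difference was −0.19 in TPM and 0.029 after centring. The ERCC share with FSK was 0.932% ± 0.0114 (SD, n = 2) at 8 h and 0.714% ± 0.0317 (SD, n = 2) at 16 h. The doses were 10 nM of Ex-4 and 10 µM of FSK, agents that act at different steps, and no equal degree of stimulation is implied.

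Of the cholesterol genes, 8 of 21 were called higher with FSK (14% of all genes), with a median of 0.37. The difference was called in 8, all more positive with Ex-4 (1.81% of all genes), in 13 after centring and in 5 with ERCC scaling. Hmgcs1 had 520.1 and 517 TPM at 8 h and 387 and 393 TPM at 16 h with FSK, a difference of 1.42 (SE 0.077, adjusted p 6.67e-13). Msmo1 had 822 and 885 TPM at 8 h and 958 and 984 TPM at 16 h, a difference of 1.11 (SE 0.072, adjusted p 1.60e-11). Both genes were higher with FSK at 8 h than with Ex-4 at 16 h. Tm7sf2 had 29.7 and 28.9 TPM at 8 h and 134 and 135 TPM at 16 h, with a difference of −0.059 (SE 0.069, adjusted p 0.484), smaller than its SE. Acss2 rose more with FSK, with 29.2 and 26.8 TPM at 8 h and 178 and 182 TPM at 16 h, a difference of −0.704 (SE 0.064, adjusted p 3.17e-09), and so did Fads1, with a difference of −0.67 (SE 0.054, adjusted p 3.92e-10). Both lost the call of a difference after centring, at −0.49 and −0.46.

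Some mitosis genes fell less with FSK. With FSK 6 of 22 were called lower (3.62% of all genes), with a median of −0.27, and the difference was called in 11, all more negative with Ex-4 (11.6% of all genes), in 6 after centring and in 15 with ERCC scaling. Ccnb1, cyclin B1, had 164 and 164 TPM at 8 h and 89.1 and 91.8 TPM at 16 h with Ex-4 and 114 and 111 TPM at 8 h and 127 and 131 TPM at 16 h with FSK, a difference of −1.05 (SE 0.056, adjusted p 6.67e-13). Cenpa, the centromeric histone, had 19.99 and 19.3 TPM at 8 h and 10.2 and 12.4 TPM at 16 h with Ex-4 and 12.9 and 11.9 TPM at 8 h and 15.3 and 15.1 TPM at 16 h with FSK, a difference of −1.02 (SE 0.12, adjusted p 2.89e-07). Aurkb, a mitotic kinase, was called lower with both, at −0.75 with Ex-4 and −0.81 with FSK, a difference of 0.063 (SE 0.054, adjusted p 0.329). Cenpa and Aurkb lost their call under Ex-4 with ERCC scaling, at −0.58 and −0.57.

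Among cAMP feedback genes the difference was called in 2 of 23, both more negative with Ex-4 and a share under the 11.6% of all genes, but in 3 after centring, all more positive, so no direction is given for the list. Nr4a1 had 179 and 176 TPM at 8 h and 70.9 and 68.1 TPM at 16 h with FSK, a difference of 0.070 (SE 0.12, adjusted p 0.636). Sik1 had 82.9 and 82.01 TPM at 8 h and 30.6 and 29.2 TPM at 16 h, a difference of 0.0038 (SE 0.14, adjusted p 0.984). Both genes stood higher with FSK than with Ex-4 at each time, and their changes differed by less than 1 SE. Crem had 171 and 172 TPM at 8 h and 86.4 and 80.4 TPM at 16 h and fell more with Ex-4, a difference of −0.59 (SE 0.12, adjusted p 1.37e-04). That call was lost after centring, at −0.37, and at −0.54 to −0.58 without replicate 2 of either time of Ex-4 or replicate 1 of either time of FSK. Kdr fell with both, with 26.8 and 28.4 TPM at 8 h and 4.52 and 4.83 TPM at 16 h under FSK. Its difference of 0.298 (SE 0.12, adjusted p 0.0436) was not called and turned to −0.63 in an edgeR fit with ERCC scaling. The log2(TPM + 1) scale understates the Ex-4 fall, which ended under 1 TPM. As a ratio of mean TPM the fall was larger with Ex-4, so the positive sign does not mean a larger fall with FSK. Plat had 63.7 and 71.8 TPM at 8 h and 63.4 and 68.1 TPM at 16 h, a difference of −1.35 (SE 0.13, adjusted p 7.36e-09). Nr1d1 rose with both, with 1.07 and 1.41 TPM at 8 h and 10.8 and 11.8 TPM at 16 h under FSK, a difference of −0.22 (SE 0.12, adjusted p 0.129).

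The 5 largest positive differences between the agents were in Ppp1r17, Fxyd6, Scgn, Scg2 and Hmgcs1. Ppp1r17 fell with both and far more with FSK, which gave 41.2 and 41.97 TPM at 8 h and 1.54 and 1.01 TPM at 16 h, a difference of 2.77 (SE 0.13, adjusted p 4.12e-14). Scg2, a granule protein, had 367 and 382 TPM at 8 h and 536 and 562 TPM at 16 h with Ex-4 and 194 and 203 TPM at 8 h and 96.7 and 95.5 TPM at 16 h with FSK, a difference of 1.59 (SE 0.052, adjusted p 1.10e-16). Scgn, secretagogin, a calcium sensor of secretory cells, had 1025 and 1024 TPM at 8 h and 1236 and 1152 TPM at 16 h with Ex-4 and 472 and 482 TPM at 8 h and 188 and 173 TPM at 16 h with FSK, a difference of 1.62 (SE 0.069, adjusted p 1.47e-14). Neither was called from 8 h to 16 h of Ex-4 in TPM, where Scg2 had a change of 0.55 (SE 0.037, adjusted p 9.31e-12), but Scg2 passed after centring at 0.62, with ERCC scaling at 0.73 and without replicate 1 of 16 h at 0.59. Fxyd6, a regulator of the sodium pump, had 153 and 148 TPM at 8 h and 153 and 158 TPM at 16 h, overlapping pairs, and 80 and 83.7 TPM at 8 h and 25.1 and 25.6 TPM at 16 h with FSK. The 5 largest negative differences were in Ifi27l2b, Fam102b, Stbd1, Lgals9 and Plcxd3. Ifi27l2b had 23.98 and 24.9 TPM at 8 h and 124 and 127 TPM at 16 h with FSK, a difference of −2.33 (SE 0.199, adjusted p 1.25e-09). Fam102b had 19.1 and 17.96 TPM at 8 h and 9.92 and 10.6 TPM at 16 h with Ex-4 and 6.57 and 6.401 TPM at 8 h and 14.7 and 15.99 TPM at 16 h with FSK, a difference of −1.92 (SE 0.094, adjusted p 1.66e-13). Stbd1, Lgals9 and Plcxd3 were not called with Ex-4, at 0.23, 0.047 and −0.21, and rose with FSK, at 2.08, 1.72 and 1.43.

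Promoter windows were found for 8201 of the 10275 tested genes, with 8633 windows since some genes have more than 1 start. The motifs searched, on both strands, were the CRE, the short CRE that lies within it, the E-box, the CCAAT box and the CHR, with the letters given above, and 3 others. The AP-1 site was searched as TGANTCA. The sterol element was searched as TCACNCCAC. The last letters of the ER stress element, which can overlap the E-box and the sterol element, were searched as CCACG. CHR letters were in 11 of 17 windows of mitosis genes (64.7%) and in 33.2% of the windows of genes called lower, against 10.8% of all tested windows and 18.3% of all windows in the table. CCAAT was in 14 of the 17 mitosis windows (82.4%) and in 13 of 16 cholesterol windows (81.2%), against 37.6% of tested windows and 37.5% of all. The short CRE was in 59.3% of 27 windows of cAMP feedback genes, against 33.1% of tested windows and 21.2% of all. The full CRE was in 4 of the 27 cAMP feedback windows (14.8%), against 3.32% of tested windows and 1.83% of all. Those 27 windows belong to 17 genes, and more than 1 of the 4 was a window of Crem. CCAAT was also in 69.6% of 23 windows of DNA replication genes. E-boxes were in 4 of 15 clock windows (26.7%), against 9.39% of tested windows and 6.42% of all. The sterol element was in 0 of 16 cholesterol windows, against 1.02% of tested windows and 1.12% of all, which says only that these letters are not in these windows. Among windows of genes called higher it was in 5 of 171 (2.92%), and of genes called lower in 1 of 295 (0.339%). AP-1 letters were in 6.44% of windows of genes called lower, against 4.59% of tested windows and 7.33% of all, and CCACG was in 44.7% and in 47.4% of windows of genes called lower and higher, against 48.3% of tested windows and 31.6% of all. A match is a run of letters and not a measured binding site.

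**Figure D5:**
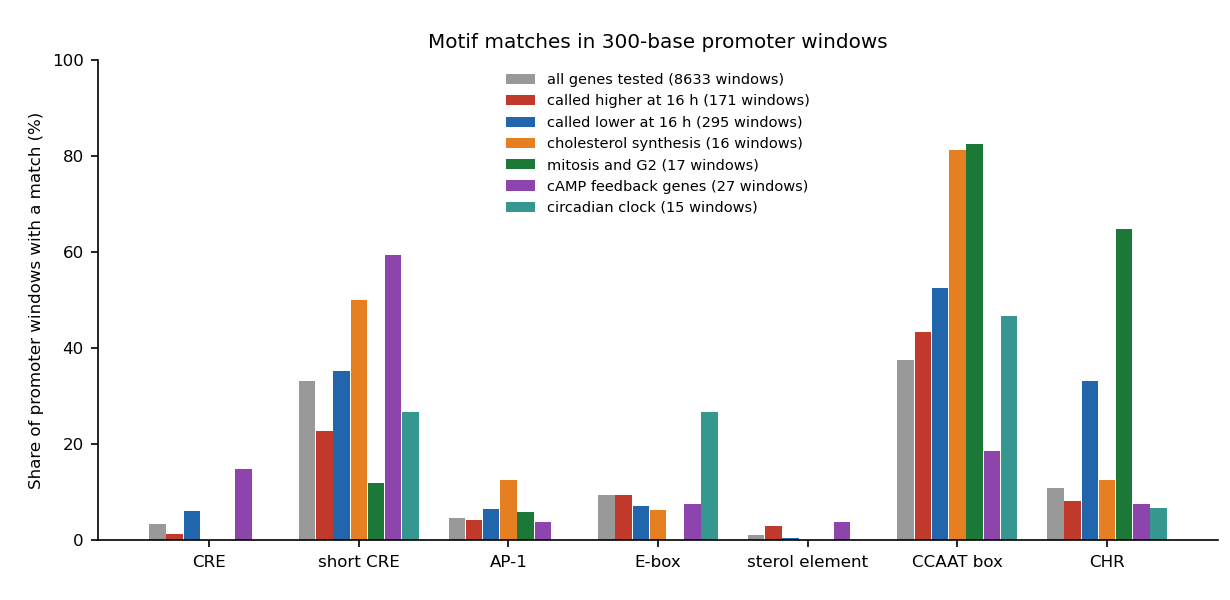
Share of 300-base RefSeq GRCr8 promoter windows (y, percent, from 0) that hold at least 1 match to each of 7 motifs (x) on either strand, with 1 bar for all tested genes, for genes called higher or lower at 16 h of Ex-4 in WT cells in TPM, and for 4 lists. The CHR bar of the mitosis list stands at 64.7% beside 10.8% for all tested windows, and the CCAAT bars of the mitosis and cholesterol lists at 82.4% and 81.2% beside 37.6%.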

How the data were processed

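Bulk RNA-seq with ERCC spike-in RNA was measured in INS-1 cells. The authors aligned reads with STAR (v2.5.3a) to rn6 with ERCC sequences added. Over exons of RefSeq transcripts they quantified TPM with HOMER (v4.11.1), and the deposited TPM table holds 19223 lines, 92 of them ERCC. The deposited ERCC counts are raw counts made with QoRTs (v1.3.6). Lines of ERCC were dropped, and for each of 17455 gene symbols the transcript with the highest mean TPM over the 28 libraries was kept, which left out 1676 transcripts.

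The 10275 genes that averaged 1 TPM or more were fitted as log2(TPM + 1) in R (v4.3.3) with limma (v3.58.1, trend) over all 28 libraries with 14 group means and no covariate, so that all groups share 1 estimate of the spread (14 residual degrees of freedom). Differences between pairs of times were contrasts of the same fit. Calls needed an adjusted p under 0.05 and a fold above 1.5. The code was tested on simulated data. Fragments per transcript were recovered from TPM, transcript length and ERCC counts (largest difference of a recovered ERCC value from a whole count 0.0663), and served for depth and for alternatives with edgeR (v4.0.16) and DESeq2 (v1.42.0). Other alternatives were the pseudocount, the filter, median-centring, ERCC scaling, a fit of the contrast's libraries alone, a replicate block, leaving out each library and no fold minimum.

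The genes named were Ins1, Ins2, Med14 and Fos, the 12 largest called rises and 12 largest called falls where the 4 libraries averaged 10 TPM or more, members of the gene lists, and for each difference the 5 largest called in either direction. The members and lists were chosen with earlier results of these data known. Motifs were searched in RefSeq promoter windows of build GRCr8, matched by symbol, since no rn6 genome was used here. Values of some genes are not reported here. Duplicates carry the same numbers in every group. Depth alone does not set the error, since duplicates differed by more than counting noise (chi-square per degree of freedom 6.63 at 8 h and 4.94 at 16 h).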

Additional observations from a re-analysis of the deposited data

Results flagged for a closer look

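The change from 8 h to 16 h of Ex-4 differed between WT and Med14 S983A cells, by a contrast of the 2 changes in the limma fit, in 10 genes taken as the 5 largest each way. The difference (WT minus Med14 S983A, log2) was 1.58 for Aldoc, 1.39 for Mt1, 1.35 for Nxph4, 1.302 for Ak4 and 1.16 for Pcp4l1. It was −2.25 for Ifi27l2b, −1.696 for Crem, −1.56 for Stk32a, −1.502 for Atf3 and −1.501 for Tac1. In Aldoc, Nxph4, Ak4 and Pcp4l1 the knock-in libraries of 8 h were above the WT libraries of 8 h.

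The change also differed between Ex-4 and FSK in WT cells, by the same kind of contrast (Ex-4 minus FSK, log2). The difference was 2.77 for Ppp1r17, 1.699 for Fxyd6, 1.62 for Scgn, 1.59 for Scg2 and 1.42 for Hmgcs1. It was −2.33 for Ifi27l2b, −1.92 for Fam102b, −1.85 for Stbd1, −1.67 for Lgals9 and −1.64 for Plcxd3. Ifi27l2b is in both sets, and both contrasts use the same WT Ex-4 libraries, so these 2 values are not independent.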

How the results depend on the processing

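Counts of calls moved with several settings, and the cause was not tested. From 8 h to 16 h of Ex-4 in WT, where 214 genes were higher and 359 lower, a pseudocount of 0.1 TPM gave 318 and 496, ERCC scaling 495 and 184, edgeR on recovered fragments 430 higher, edgeR with ERCC scaling 958 in all with 680 higher, DESeq2 431 higher, and no fold minimum 5313 (1940 higher, 3373 lower). For the difference from Med14 S983A (103 more positive, 174 more negative), ERCC scaling gave 853 (790 and 63), edgeR 440 with 241 more positive, edgeR with ERCC scaling 1163 (1088 and 75), DESeq2 230 more positive, a pseudocount of 0.1 TPM 183 more positive, centring 156 more positive, and no fold minimum 2506 (1076 and 1430). For the difference from FSK (186 and 1194), centring gave 873 (449 and 424), ERCC scaling 2609 (102 and 2507), edgeR 461 more positive, edgeR with ERCC scaling 3195 (118 and 3077), DESeq2 461 and 765, and no fold minimum 5714 (898 and 4816). Leaving out each library gave 562 to 640, 274 to 312 and 1272 to 1555 calls. The difference of Kdr between Ex-4 and FSK turned to −0.63 in edgeR with ERCC scaling, and its sign in the main fit also rests on the log2(TPM + 1) scale. Of the single-gene values, 13 lost a call and 5 gained one after centring, and 22 and 24 with ERCC scaling. The labels' replicate numbers did not pair the libraries (r of deviations 0.045 between 8 h and 16 h of Ex-4 in WT). A replicate block gave 574 calls, 215 of them higher, and changed no call of a named gene. With 2 libraries a group, changes near 1.5-fold can fall on either side of it.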
